A study of Oryza sativa with 21 samples.

Results

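In grains of rice collected 3 days after pollination, 68 genes stood higher than wild type in 1 overexpression line of DRW1 and lower than wild type in the other. They are 68 of the 39217 genes in the table of grain read counts. A gene was taken when its normalised count, the read count divided by a size factor per library, averaged at least 150 in wild type, at least 1.7 times that in line OE1, and at most that divided by 1.7 in line OE2. The genes were thus chosen by the values of all 9 grain libraries, so their levels and ratios are a description and no test is read from them. The wild type was the cultivar ZH11, and OE1 and OE2 both carried the DRW1-OE genotype. Each group had 3 libraries from paddy-grown plants, with 33237306 to 38117144 counts per library, and the smallest count of any of the 68 genes in a library was 18. Whether the 3 libraries of a group came from separate plants is not stated in the labels, and a p-value here measures no more than the spread between libraries, which may be technical. The sources used here do not give the promoter that drives DRW1 or the origin of each line. DRW1 matched no symbol in the reference and is not analysed here, so how strongly it was overexpressed in OE1 and OE2 is not known from these values.

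Names were tried for 140 identifier and symbol pairs and not for each of the 68 genes. Which names appear thus depends on the pairs tried, and no pathway is read from them. Gene names could be attached to 3 of the 68. Their symbols are carried by the reference on the chromosome and in the order that the rice locus identifier states. They are CYP734A6, GSK2 and C3H2, and the other 65 are given by identifier. CYP734A6 and GSK2 belong to the biology of brassinosteroids, plant steroid hormones that promote cell expansion and, in rice, set plant stature, leaf angle and grain size. Brassinosteroid is bound at the cell surface by the receptor kinase BRI1 with its partner BAK1, and the signal ends in release of the transcription factor BZR1 from kinases of the GSK3/SHAGGY type, of which GSK2 is one in rice. Enzymes such as D2 and D11, cytochrome P450s, make the hormone, and other P450s of the CYP734A family inactivate it. C3H2, also known as OsDOS, is a nuclear CCCH zinc finger protein known in rice for delaying leaf senescence.

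All 68 genes had non-overlapping groups, with each OE1 library above each ZH11 library and each ZH11 library above each OE2 library. Of the 16476 genes with a ZH11 mean of at least 150, 5.23% had this order. The rule makes such an order likely, so nothing is read from this comparison. The OE1 to ZH11 ratio of group means ran from 1.7 to 10.4 with a median of 2.08, and the ZH11 to OE2 ratio from 1.7 to 6.39 with a median of 2.34. Between the lines the ratio of OE1 to OE2 ran from 3.22 to 29.5, with a median of 5.38. It was at least 4 in 50 genes, at least 8 in 20 and at least 10 in 10. The fall in OE2 was the larger of both changes in 35 genes and the rise in OE1 in 33, a balance set by the scaling. With library totals in place of size factors the fall was the larger in 63 genes and the rise in 5, and the median ratios were 1.45 for OE1 to ZH11 and 3.47 for ZH11 to OE2. Ratios are given with the size factors unless library totals are named. Group means in ZH11 ran from 162 to 9664 normalised counts with a median of 538. The corresponding medians were 1479 in OE1 and 213 in OE2. Together the 68 genes took 0.287% to 0.293% of the counts of a ZH11 library, 0.465% to 0.475% in OE1 and 0.0824% to 0.0848% in OE2. These are bulk grains, in which fewer cells of a type and less RNA per cell cannot be told apart.

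**Figure D1:**
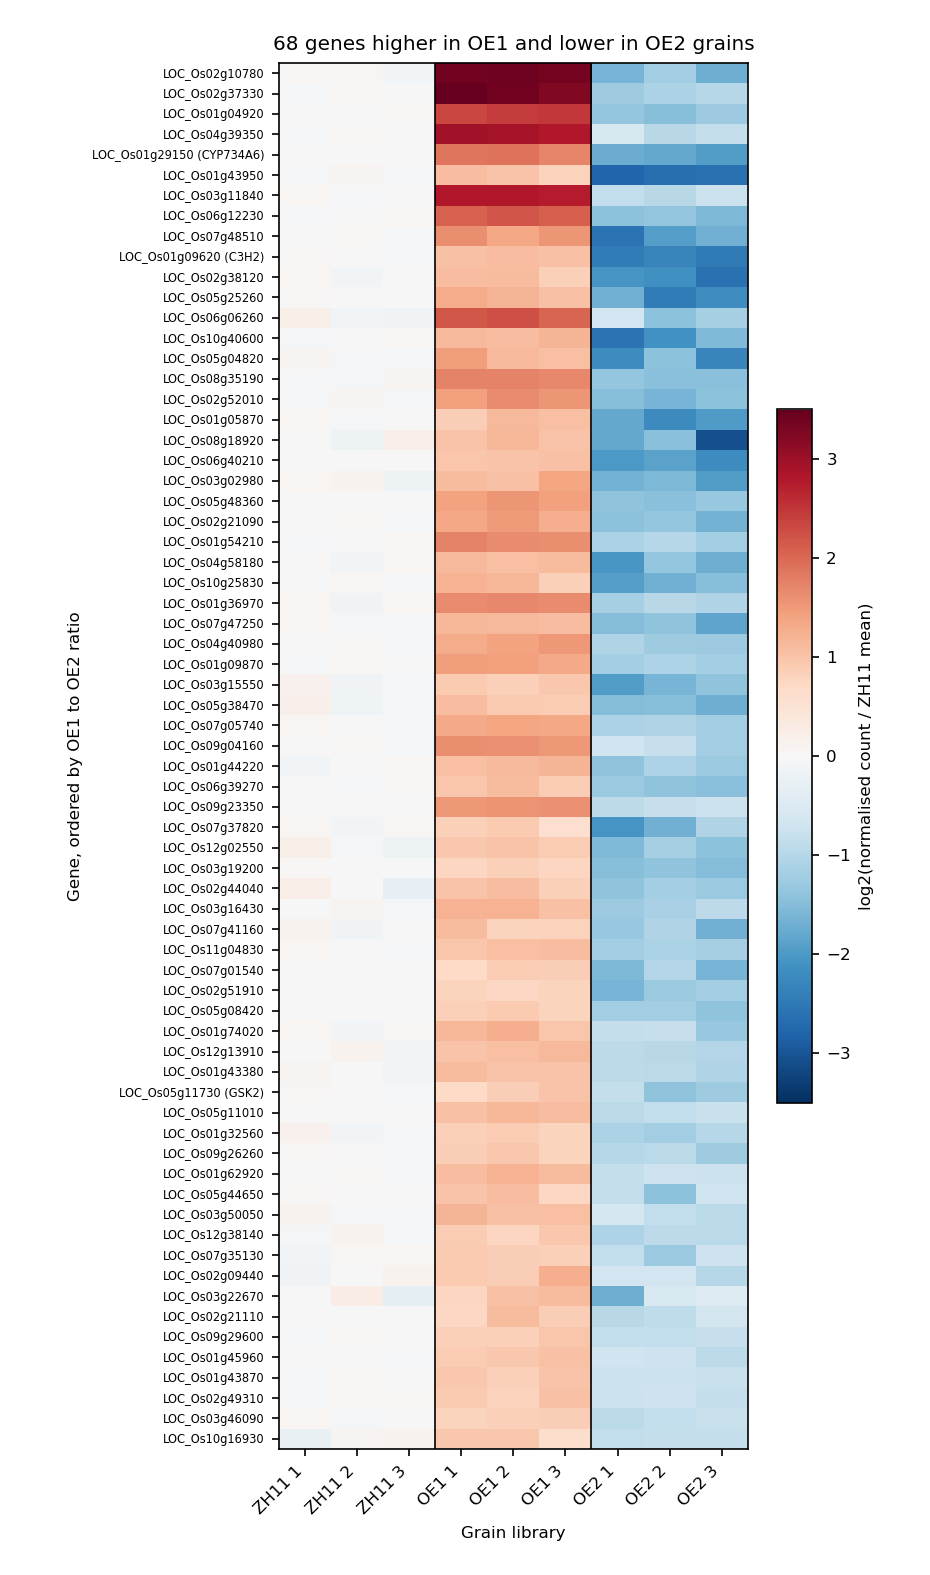
Heat map of the 68 genes (rows, ordered by the ratio of OE1 to OE2, largest at the top) in the 9 grain libraries (columns), coloured by log2 of the normalised count over the ZH11 mean. The OE1 columns are red and the OE2 columns blue in all 68 rows, and colour strength differs between rows from a ratio of OE1 to OE2 of 29.5 at the top to 3.22 near the foot.

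Both lines are set against the same ZH11 libraries, so an error in a ZH11 mean enters both changes of a gene. Among the 16476 genes, OE1 reached 1.7 times ZH11 in 2805 genes, or 17%, and OE2 was at or under ZH11 divided by 1.7 in 3590, or 21.8%. The 68 genes are 2.42% of the first set and 1.89% of the second, and 0.413% of the 16476. With edgeR's quasi-likelihood test and Benjamini-Hochberg adjustment, called below 0.05, 68 of 68 were higher in OE1 than in ZH11, against 33.9% of all 24765 genes tested. The same test called 68 of 68 lower in OE2 than in ZH11, against 36%, and 68 of 68 higher in OE1 than in OE2, against 32.8%. The rule used these contrasts, and nothing is read from the counts. The fitted log2 change ran from 0.76 to 3.37 in OE1 with a median of 1.05, and from −2.68 to −0.77 in OE2 with a median of −1.23. The medians over all tested genes were −0.03 and 0.01.

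**Figure D2:**
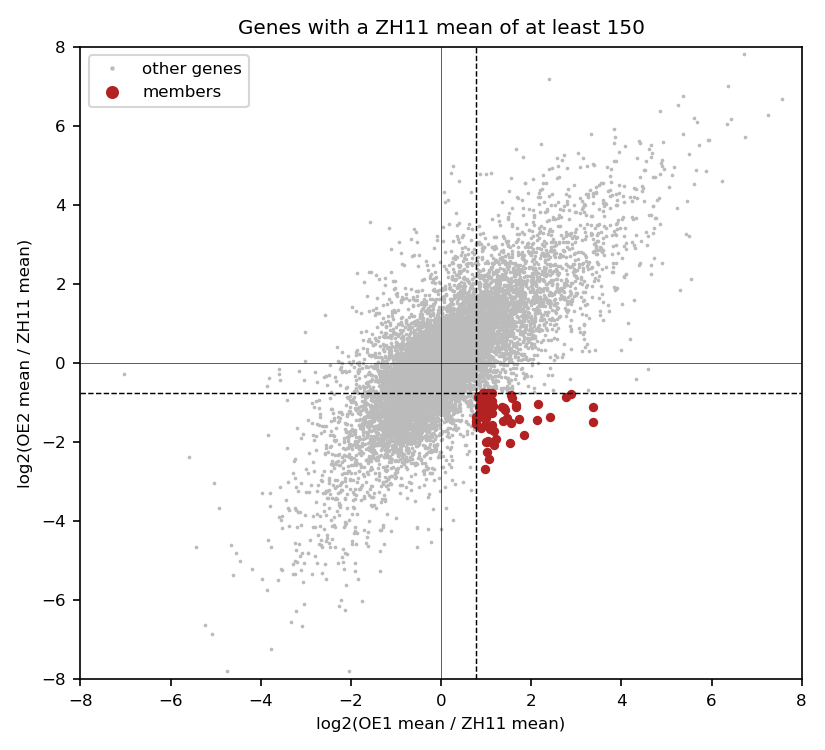
Scatter plot of genes with a ZH11 mean of at least 150, with log2 of the OE1 to ZH11 ratio on the horizontal axis and log2 of the OE2 to ZH11 ratio on the vertical axis. Each point is a gene, red points are the 68 genes, dashed lines mark the limit of 1.7 times in each direction, and 7 other genes lie outside the frame. The red points fill the lower right corner, most of them close to the limits, with a few reaching far to the right.

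CYP734A6 (LOC_Os01g29150, chromosome 1), the brassinosteroid-inactivating P450, stood at 783, 769.9 and 765 in the ZH11 libraries, 2847, 2872 and 2540.2 in OE1 and 230.5, 222 and 200.3 in OE2 normalised counts. The group means were 773 ± 9.10 in ZH11, 2753 ± 185 in OE1 and 218 ± 15.6 in OE2 (SD, n = 3 each). The 3 groups did not overlap, as was so for all 68 genes. The mean in OE1 was 3.56 times that of ZH11, and the mean of ZH11 was 3.55 times that of OE2, which makes 12.6 times between the lines. With the size factors it was the 1 gene of the 68 with at least 3 times in each direction. With library totals its ratios were 2.49 and 5.27, and 5 other genes reached 3 times in each direction.

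GSK2 (LOC_Os05g11730, chromosome 5), the kinase that restrains brassinosteroid signalling, stood at 624, 613 and 598 in the ZH11 libraries, 993, 1110 and 1219 in OE1 and 342, 231 and 259 in OE2. Its means were 612 ± 13.0 in ZH11, 1107 ± 113 in OE1 and 278 ± 57.9 in OE2 (SD, n = 3 each). The groups did not overlap, although the libraries of both lines were spread more widely than those of ZH11. The rise in OE1 was 1.81 times and the fall in OE2 2.20 times. GSK2 has close relatives in the rice genome, and the sources used here do not say how reads shared by such copies were counted.

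C3H2 (LOC_Os01g09620, chromosome 1), the zinc finger protein, had the highest read counts of the 68. Such counts grow with transcript length as well as abundance, so they do not rank genes by abundance. It stood at 10014, 9501 and 9477 in the ZH11 libraries, 19842, 20593 and 19818 in OE1 and 1758, 1900.1 and 1733 in OE2. The means were 9664 ± 303 in ZH11, 20084 ± 441 in OE1 and 1797 ± 90.0 in OE2 (SD, n = 3 each), a rise of 2.08 times in OE1 and a fall of 5.38 times in OE2. Its change was thus mainly on the OE2 side. C3H2 made up 11.8% to 12.2% of the counts of the 68 genes in ZH11 libraries, 10.7% to 10.8% in OE1 and 5.11% to 5.43% in OE2. Its share was thus lowest in OE2.

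**Figure D3:**
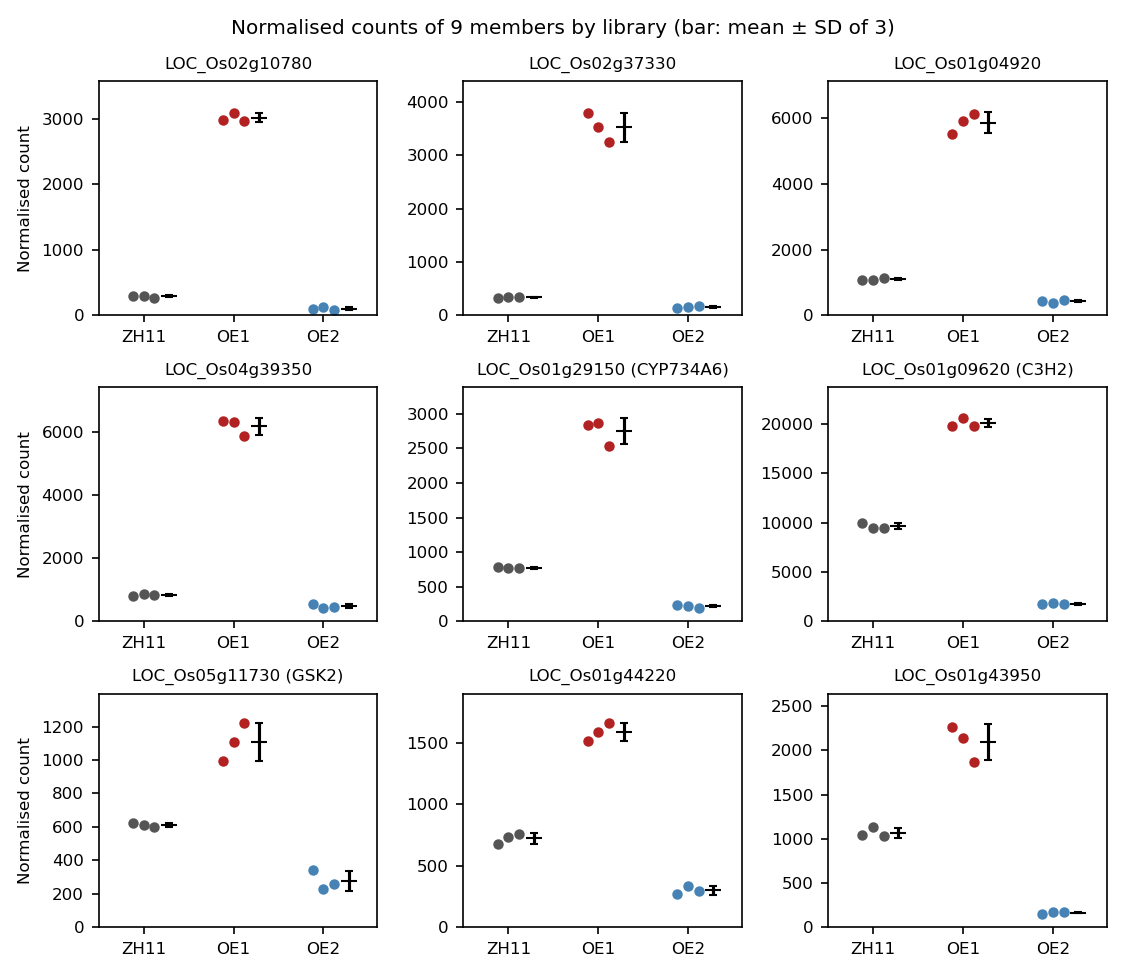
Normalised counts of 9 of the 68 genes in each grain library: the 4 of largest ratio of OE1 to OE2, the 3 with a symbol, LOC_Os01g44220 and LOC_Os01g43950. Points are libraries, the bar beside them is the mean ± SD of 3, each panel has its own linear axis from 0, and in all 9 panels OE1 is highest and OE2 lowest with no overlap.

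Of the other 3 CYP734A genes, none was called lower in OE2 under the main scaling. CYP734A4 rose in both lines, with means of 116 ± 4.25 in ZH11, 2013 ± 108 in OE1 and 1121 ± 126 in OE2 (SD, n = 3 each). In edgeR's quasi-likelihood test with Benjamini-Hochberg adjustment its log2 change was 4.11 (SE 0.10, adjusted p = 1.46e-28) in OE1 and 3.27 (SE 0.10, adjusted p = 1.66e-25) in OE2. CYP734A5 rose as well, with means of 88.9 ± 8.93 in ZH11, 273 ± 27.6 in OE1 and 329.6 ± 31.7 in OE2. Its edgeR log2 changes were 1.61 (SE 0.16, adjusted p = 1.56e-10) and 1.88 (SE 0.16, adjusted p = 2.16e-12). The 2 genes were thus above ZH11 in OE2, where CYP734A6 was below it. CYP734A2 stood at 192 ± 21.7 in ZH11, 263 ± 55.5 in OE1 and 188 ± 22.3 in OE2. Its edgeR log2 change was 0.45 (SE 0.17, adjusted p = 0.019) in OE1, a call lost without ZH11 replicate 2, ZH11 replicate 3 or OE1 replicate 1 and reversed in sign with library totals (−0.06), and −0.03 (SE 0.17, adjusted p = 0.865) in OE2. With library totals CYP734A2 was called lower in OE2 (log2 change −0.60, edgeR adjusted p = 0.0021). The family was set beside CYP734A6 after its identifier and values had been seen. Reads shared by such related sequences could not be told apart.

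A list of 8 brassinosteroid genes, GSK2 among them, held 4 genes called higher in OE1, 2 lower and 2 not called by edgeR's quasi-likelihood test, with a median log2 change of 0.13. In OE2 it held 1 higher and 7 lower, with a median of −0.85. Of the 8, 4 were called both higher in OE1 and lower in OE2. The number of all tested genes with both calls was not counted, so nothing is read from the 4. Of all tested genes, 33.9% were called higher and 33.8% lower in OE1, and 38.4% higher and 36% lower in OE2. With library totals as the scaling, which moves the median of all genes by −0.51 in OE1 and −0.56 in OE2, the list held 1 gene higher and 5 lower in OE1, and 1 higher and 7 lower in OE2. The 1 gene still higher in OE1 was GSK2.

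The receptor gene BRI1 stood at 6911, 6687 and 6979 in the ZH11 libraries, 8342, 8454 and 8559 in OE1 and 2223, 2291 and 2318 in OE2. By edgeR its log2 change was 0.29 (SE 0.04, adjusted p = 1.36e-07) in OE1 and −1.60 (SE 0.04, adjusted p = 1.07e-26) in OE2. BRI1 therefore moved in the same pair of directions as GSK2 under the main scaling, with a small rise that missed the limit of 1.7 and became a fall of 0.22 on the log2 scale with library totals. Transcripts of the coreceptor gene BAK1 had an edgeR log2 change of −0.02 (SE 0.05, adjusted p = 0.649) in OE1, where the gene was not called, and −0.39 (SE 0.05, adjusted p = 3.16e-09) in OE2. For BZR1, the transcription factor, the edgeR log2 changes were −0.13 (SE 0.05, adjusted p = 0.0208) and −0.95 (SE 0.05, adjusted p = 5.73e-18). The call in OE1 was lost without ZH11 replicate 1, OE1 replicate 1 or OE1 replicate 3.

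The synthesis genes D2 and D11 differed from the 68. D2 stood at 376, 410 and 345 in the ZH11 libraries, 351, 405 and 354 in OE1 and 2069.8, 2335 and 2249 in OE2. In OE2 it rose, by an edgeR log2 change of 2.55 (SE 0.08, adjusted p = 3.61e-24), and in OE1 it was not called, with a change of −0.04 (SE 0.09, adjusted p = 0.747). OE1 was lower than OE2 by −2.59 (SE 0.09, adjusted p = 2.03e-23) in the edgeR test. With library totals D2 and BAK1 were both called lower in OE1, by log2 changes of −0.55 and −0.53 (edgeR adjusted p = 2.61e-06 and 1.16e-12). D11 was lower in both lines, with edgeR log2 changes of −1.03 (SE 0.20, adjusted p = 2.86e-05) in OE1 and −1.63 (SE 0.21, adjusted p = 1.39e-08) in OE2. The remaining 2 genes of the list, LOC_Os06g03710 and LOC_Os03g40540, whose names could not be checked, had log2 changes of 0.60 each in OE1 and −0.59 and −0.76 in OE2. With library totals neither was called in OE1 (log2 change 0.09 each, edgeR adjusted p = 0.149 and 0.17).

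**Figure D4:**
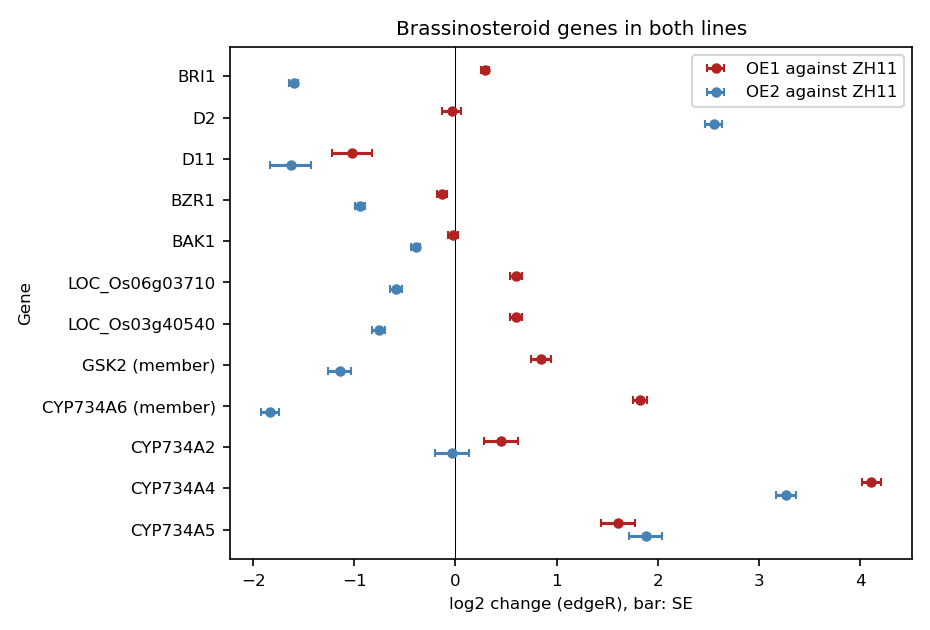
Fitted log2 change against ZH11 (horizontal axis, edgeR) of 12 brassinosteroid genes, for OE1 in red and OE2 in blue, with bars for the SE. GSK2 and CYP734A6, 2 of the 68, have red points right of 0 and blue points left of it. BRI1, LOC_Os06g03710, LOC_Os03g40540 and CYP734A2, outside the 68, lie on the same sides, CYP734A2 at only −0.03 in OE2. D2, CYP734A4 and CYP734A5 have blue points right of 0.

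The largest contrast between the lines was at LOC_Os02g10780, with 298, 301 and 271 in the ZH11 libraries, 2992, 3097 and 2966 in OE1 and 94.2, 125 and 88.0 in OE2. OE1 was 10.4 times ZH11 and 29.5 times OE2. LOC_Os02g37330 followed with 329.5, 353 and 342 in the ZH11 libraries, 3792, 3536 and 3242 in OE1 and 144, 159 and 171 in OE2, a rise of 10.3 times and a fall of 2.16 times. In both, the rise in OE1 was larger than the fall in OE2. They were the 2 genes of the 68 that rose at least 10 times.

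The other genes that rose at least 4 times in OE1 were 5. LOC_Os04g39350 stood at 819, 868 and 825 in the ZH11 libraries, 6363, 6319 and 5894 in OE1 and 566, 429.8 and 465 in OE2, a rise of 7.40 times beside a fall of 1.72 times, close to the limit. LOC_Os03g11840 had a like shape with 436, 407 and 416 in the ZH11 libraries, 2902, 2903 and 2832 in OE1 and 233, 212 and 249 in OE2. LOC_Os01g04920 stood at 1079, 1082 and 1133 in the ZH11 libraries, 5512, 5934 and 6145 in OE1 and 431, 392 and 455 in OE2, and its changes were 5.34 and 2.58 times. Their OE1 libraries lay close together, with an SD of 4.19%, 1.41% and 5.49% of the mean in the order named. LOC_Os06g12230 rose 4.36 times and fell 2.73 times, with 345, 353 and 373 in the ZH11 libraries, 1506, 1630 and 1532 in OE1 and 133, 138 and 120.4 in OE2. LOC_Os06g06260, which lies outside the naming rule, rose 4.47 times and fell 2.06 times. LOC_Os01g04920 and LOC_Os06g12230 fell more than they rose with library totals. Their rises were then 3.73 and 3.04 times and their falls 3.83 and 4.06 times.

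With the size factors another 7 genes had the opposite emphasis, with a fall of at least 4 times in OE2 and a rise under 3 times in OE1. LOC_Os01g43950 had the largest fall, 6.39 times, and stood at 1045, 1135 and 1027 in the ZH11 libraries, 2264, 2141 and 1867 in OE1 and 156, 171 and 175 in OE2. LOC_Os07g48510 stood at 517, 533 and 498 in the ZH11 libraries, 1601, 1328 and 1515 in OE1 and 86.4, 136 and 161 in OE2, where the OE2 libraries spread widely but stayed below those of ZH11. C3H2 was the second largest fall. The remaining 4 were LOC_Os02g38120, LOC_Os05g25260, LOC_Os10g40600 and LOC_Os06g40210, with falls of 4.78, 4.19, 4.08 and 4.03 times and rises of 2.02, 2.24, 2.21 and 1.99 times. These 4 were named after their values were seen. None of the 68 both rose and fell at least 4 times, 30 did so at least 2 times, and 54 reached 4 times in neither direction. With library totals 1 did so at least 4 times, LOC_Os02g10780 at 7.26 and 4.21, and 15 at least 2 times.

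The genes with the highest ZH11 means after C3H2 changed by modest ratios with tight libraries. LOC_Os05g08420 stood at 8413, 8479 and 8326 in the ZH11 libraries, 15092, 15738 and 14431 in OE1 and 3616, 3623 and 3146 in OE2, and LOC_Os01g62920 at 5313, 5444 and 5047 in the ZH11 libraries, 11108, 12221 and 11412 in OE1 and 2937, 3202 and 3128 in OE2. LOC_Os05g11010 stood at 4292, 4235 and 4160 in the ZH11 libraries, 8584, 9469 and 8898 in OE1 and 2192, 2328 and 2484 in OE2. These rose 1.79, 2.20 and 2.12 times and fell 2.43, 1.71 and 1.81 times, in the order named.

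LOC_Os11g04830 stood at 4133, 3913 and 3812 in the ZH11 libraries, 7744, 8203 and 8281 in OE1 and 1689, 1817 and 1757 in OE2, and LOC_Os01g43380 at 3726, 3499.6 and 3264 in the ZH11 libraries, 7545, 6999 and 6933 in OE1 and 1843, 1803 and 1682 in OE2. The rise and fall were 2.04 and 2.25 times for the former and 2.05 and 1.97 times for the latter, against 1.43 and 3.34 times and 1.43 and 2.92 times with library totals. LOC_Os03g19200, with 3277, 3175 and 3143 in the ZH11 libraries, 5382, 5669.8 and 5437 in OE1 and 1135, 1195 and 1114 in OE2, changed more in OE2 (2.79 times) than in OE1 (1.72 times). LOC_Os09g23350, with 2689, 2609.9 and 2654 in the ZH11 libraries, 7586, 7837 and 8058 in OE1 and 1416, 1512 and 1584 in OE2, rose 2.95 times and fell 1.76 times, an order that reverses with library totals (2.06 and 2.62 times). LOC_Os07g05740 rose 2.55 times and fell 2.16 times.

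Of 26 starch synthesis genes tested, 1 is among the 68. It is LOC_Os01g44220, listed under starch synthesis by a pairing with a symbol that the reference did not carry, so its product is not named here. It stood at 676, 735 and 762 in the ZH11 libraries, 1510.3, 1585 and 1658 in OE1 and 270.4, 339 and 293 in OE2, with means of 724 ± 44.1 in ZH11, 1584 ± 73.6 in OE1 and 301 ± 35.2 in OE2 (SD, n = 3 each). The groups did not overlap, and the rise was 2.19 times and the fall 2.41 times. In the whole list edgeR called 9 genes higher and 10 lower in OE1 (median log2 change −0.04), and 4 higher and 21 lower in OE2 (median −0.79). With library totals the split was 5 higher and 19 lower in OE1, and 2 higher and 24 lower in OE2.

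Of the 26, 5 genes including LOC_Os01g44220 were called higher in OE1 and lower in OE2. How many of all tested genes had both calls was not counted, so nothing is read from the 5. Among them, LOC_Os03g52460 was only slightly lower in OE2 (log2 change −0.19, edgeR adjusted p = 0.0333). That call was lost with DESeq2 and without ZH11 replicate 1, ZH11 replicate 3 or OE2 replicate 3. Others of the 26 rose in both lines, such as LOC_Os06g04200 (log2 changes 4.09 and 1.34) and LOC_Os06g12450 (1.83 and 1.06). The 2 of the 5 with a checked name are given here for their directions. AGPS2, a small subunit of ADP-glucose pyrophosphorylase, had means of 3598 ± 143 in ZH11, 4936 ± 133 in OE1 and 2232 ± 24.7 in OE2, with edgeR log2 changes of 0.45 (SE 0.05, adjusted p = 2.94e-10) and −0.70 (SE 0.05, adjusted p = 7.08e-15). ISA1, the isoamylase that trims branched glucan, had means of 1604 ± 26.6 in ZH11, 2510.1 ± 110.2 in OE1 and 1246 ± 55.1 in OE2, with edgeR log2 changes of 0.64 (SE 0.06, adjusted p = 1.43e-11) and −0.37 (SE 0.06, adjusted p = 1.86e-06). Both missed the limit of 1.7 in OE1, and with library totals the rise of AGPS2 in OE1 was no longer called (log2 change −0.06, edgeR adjusted p = 0.223) and that of ISA1 shrank to 0.13 (edgeR adjusted p = 0.0463). The other 9 of the 12 gene lists, from cell cycle and sugar transport to aquaporins, held none of the 68. The 68 are 0.413% of the genes with a ZH11 mean of at least 150, so lists this short would mostly hold none. The CYP734A list, which holds CYP734A6, was added after its values were seen. Nothing is read from which lists held any of the 68.

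The summed normalised counts of tissue marker lists moved between the groups too. The name check passed for 3 of the 15 green tissue genes, all 6 carpel and ovule genes, 1 of the 8 endosperm genes and 4 of the 5 embryo and aleurone genes. The other identifiers are in these lists by pairings that could not be checked. Green tissue markers (15 genes) summed to 57017 to 58455 in ZH11 libraries, 39457 to 42297 in OE1 and 26960 to 27409 in OE2, and edgeR called 3 of them higher and 9 lower in OE1, and 2 higher and 13 lower in OE2. Maternal carpel and ovule markers (6 genes) summed to 39219 to 39775, 29202 to 29795 and 30971 to 32086, with 1 called higher and 5 lower in OE1, and 1 higher and 4 lower in OE2. Of all tested genes, 33.8% were called lower in OE1 and 36% in OE2. Both sums were thus lowest in a line and highest in ZH11, unlike the 68 genes. Single markers could differ from the sums. In the green list 2 genes were called higher in OE1 and lower in OE2, and in the carpel and ovule list 0. The 2 were LOC_Os01g52240 (edgeR log2 changes 0.60 and −2.22) and LOC_Os03g39610 (0.24 and −0.70). How many of all tested genes had both calls was not counted. Endosperm markers (8 genes) summed to 1498 to 1642, 1684 to 1867 and 2544 to 2728. Much of the higher sum in OE2 lay in LOC_Os02g15350, with means of 96.5 in ZH11, 309 in OE1 and 1038 in OE2. LOC_Os01g01470 and LOC_Os01g29840 of this list stood at 0 in all ZH11 libraries and at no more than 8.93 in any library of the lines. They were too low to be tested. Of the 6 endosperm markers that could be tested, 3 were called higher and 3 lower in OE1, and 3 higher and 1 lower in OE2. Embryo and aleurone markers (5 genes) summed to 676 to 795, 779 to 914 and 1523 to 1676, with 4 called higher and 1 lower in OE1 and 2 higher in OE2. With library totals the green list held 0 higher and 14 lower in each line, the carpel and ovule list 0 higher with 6 lower in OE1 and 5 in OE2, the endosperm list 2 higher and 3 lower in OE1 and 3 of each in OE2, and the embryo and aleurone list 2 higher and 1 lower in each line. With the size factors no marker sum was highest in OE1 and lowest in OE2, and the part of these shifts in the levels of the 68 genes was not tested.

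The identifiers state a chromosome and an order along it, which the rule did not use. Chromosome 1 held 15 of the 68 genes, 22.1% of them, against 14.4% of the genes with a ZH11 mean of at least 150. Chromosome 2 held 10 and chromosomes 3 and 5 held 8 each, and the fewest were the 1 of chromosome 11 and the 2 of chromosome 8. Chromosomes 1 and 2 together held 36.8% of the 68 against 26.7% of those genes. No test was made of these shares.

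**Figure D5:**
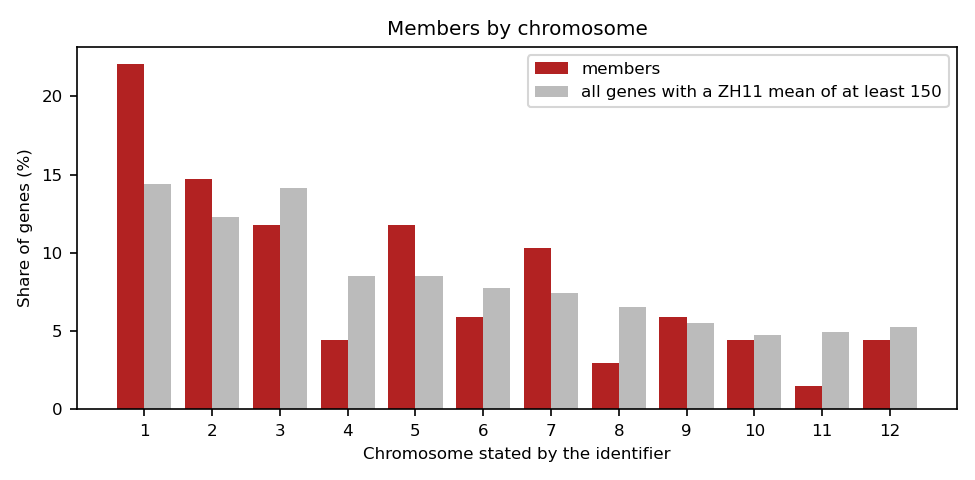
Share in percent (vertical axis) of the 68 genes, in red, and of all genes with a ZH11 mean of at least 150, in grey, on each of the 12 chromosomes that the identifiers state. The red bar exceeds the grey one most on chromosome 1, at 22.1% against 14.4%.

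A single pair of the 68 were direct neighbours in identifier order, LOC_Os02g21090 and LOC_Os02g21110. The former stood at 507, 516 and 476 in the ZH11 libraries, 1277, 1393 and 1212 in OE1 and 185, 196 and 159 in OE2, and the latter at 373, 367 and 367 in the ZH11 libraries, 609.7, 801 and 671 in OE1 and 187, 199 and 237 in OE2. The first changed more, by 2.59 and 2.78 times against 1.88 and 1.78 times. The sources used here do not say whether these neighbours overlap or whether reads were counted by strand. On chromosome 1, LOC_Os01g43870 and LOC_Os01g43950 had 5 identifiers between them. The stretch from LOC_Os01g43380 to LOC_Os01g44220, both chosen genes, held, as it happens, also 68 identifiers. Of these, 29 passed the ZH11 minimum, 4 were among the chosen genes and 7, those 4 included, had OE1 above ZH11 above OE2 in their means. Over all genes past the minimum, 0.413% were chosen, and 11.5% of the others had this order. The stretch was drawn from the places of chosen genes, which raises its counts, so nothing is read from them. The median distance to the nearest other chosen gene was 212 identifiers.

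Genes beside the chosen ones did not lean their way more than other genes. Of 134 direct neighbours outside the 68, 56 passed the ZH11 minimum, and 6 of these, or 10.7%, had OE1 above ZH11 above OE2 in their means. Among all 16408 other genes past the minimum 1885 did, or 11.5%.

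The spread between libraries of the 68 differed by group. The median coefficient of variation, the SD as a percent of the mean, was 4.21% in ZH11, against 4.82% for all genes past the minimum, and 5.43% in OE1, against 6.56%. In OE2, where their counts are lowest, it was 9.86% against 6.18%, and 14 of the 68 exceeded 20%. The widest was LOC_Os08g18920 at 48.7%, with 51.0, 63.6 and 20.8 in OE2, all below its lowest ZH11 library at 155. It was chosen for mention after its values were seen.

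The limits cut through a continuous range. At the limit on the fall, LOC_Os02g09440 and LOC_Os01g43870 lay just inside, with 1.702 and 1.704 times, and LOC_Os03g16460 and LOC_Os02g45710 lay just outside, with 1.695 times each. On the rise, LOC_Os02g51910 at 1.7003 and LOC_Os07g37820 at 1.72 times were inside, and LOC_Os10g12354 and LOC_Os08g36220, at 1.69 times each, outside. For the ZH11 mean, LOC_Os05g04820 at 162 and LOC_Os02g09440 at 172 were inside, and LOC_Os08g14450 at 145 and LOC_Os11g43410 at 142 outside. The genes just outside a limit differed little in the limited value from those just inside it, since they were picked for lying nearest to it.

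Scaling shapes the set. The size factors of ZH11 libraries were 1.22 to 1.37, those of OE1 libraries 0.836 to 0.932 and those of OE2 libraries 0.864 to 0.903, so ZH11 counts were scaled down relative to both lines. With library totals, all 68 still had OE1 above ZH11 above OE2, with the lowest ratios at 1.19 and 2.53 times, but 20 of the 68 met both limits. CYP734A6 was among the 20. C3H2 fell short of the limit in OE1, at 1.45 times, and GSK2 did so at 1.26 times. Of all tested genes called in OE1, 50.1% were higher under the main scaling and 25.9% with library totals, and in OE2 the shares were 51.6% and 29.8%.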

How the data were processed

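Rice grains of ZH11, OE1 and OE2 (3 libraries each) were measured by RNA-seq. The deposited table holds whole-number counts of reads per gene, made by the authors, per the labels. HISAT2, featureCounts, DESeq and BWA are named in the submitters' processing notes. The sources used here do not give the build, annotation or strand setting. Counts were divided by median-of-ratios size factors over all 9 libraries, and genes were chosen by the limits stated above. The whole table was fitted in R 4.3.3 with edgeR 4.0.16 (TMM scaling, default filter, robust quasi-likelihood test on group, two-sided) and limma 3.58.1 loaded with it, which left 24765 genes tested and 14452 not. DESeq2 1.42.0, other scalings, limits, filters and left-out libraries were alternatives. The fit was tested on simulated data in which few genes changed, in OE1 only and in equal numbers up and down. In the grain data many genes were called, so that test does not bear on the choice of scaling.

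The genes and lists were chosen with earlier results of these data known, and the CYP734A family and C3H2 pairs were added after values were seen. Of 140 identifier and symbol pairs, 89 passed the check against the reference, 50 had a symbol not found and 1 was ambiguous. Named genes were the 10 of largest OE1 to OE2 ratio, the 10 of highest ZH11 mean, those with a checked symbol, direct neighbours, and the 2 on each side of each limit. Others are said to be chosen afterwards or belong to the gene lists. The 6 seedling m5C peak lists were not used, since they cannot be placed on these genes without the build.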

Additional observations from a re-analysis of the deposited data

How the results depend on the processing

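Of 624 values for the 26 named genes under other scalings, DESeq2, the replicate block or a left-out library, 623 kept direction and call. LOC_Os07g37820 lost its call in OE1 with library totals (log2 change 0.26, edgeR adjusted p = 0.0882), and none reversed. The rule chose all 26 genes from these same libraries and contrasts, which makes this likely, so nothing is read from it. The rule found 151 genes at a limit of 1.5 times and 30 at 2, against 68. It found 69 with TMM factors (67 shared), 72 with library totals (20 shared), 90 at a ZH11 minimum of 50, 51 at 300, and 62 to 74 with a library left out (60 to 67 shared). All genes called with library totals were 5115 higher and 14666 lower in OE1 (main 8399 and 8375), and 6050 higher and 14233 lower in OE2 (main 9506 and 8912). With a library left out, the calls of all genes in OE1 ran from 8092 to 8515 higher and 7737 to 8499 lower. They ran from 9262 to 9705 and 8448 to 9067 in OE2, and from 7729 to 8059 and 7624 to 8006 between the lines. In each contrast 68 of the 68 were called, from which nothing is read either.

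The replicate numbers did not pair the libraries (correlations of deviations −0.0161 to 0.035). With the replicate block all genes called were 8313 higher and 8285 lower in OE1, 9407 and 8847 in OE2, and 8023 and 7944 between the lines. The 68 were called in each contrast, from which nothing is read, since the rule used these contrasts. Counts of the 68 genes were lowest in OE2, and the part of depth in their spread there was not tested.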

Other observations

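LOC_Os02g37320, directly beside LOC_Os02g37330 in identifier order, was looked at after its values were seen. It stood at 178, 152 and 148 in the ZH11 libraries, 3189, 3204 and 2943 in OE1 and 526, 461 and 469 in OE2. It thus rose in both lines, by edgeR log2 changes of 4.28 (SE 0.09, adjusted p = 1.7e-30) in OE1 and 1.60 (SE 0.09, adjusted p = 5.05e-17) in OE2, while its neighbour was 2.16 times lower in OE2 than in ZH11. The 2 genes therefore shared the direction in OE1 and not in OE2, and reads of overlapping or antisense transcripts could not be told apart.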
